A study of Homo sapiens with 8 samples.

Results

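SERPINB2, SERPINB3, SERPINB4, SERPINB5, SERPINB7 and SERPINB8 are neighbouring genes of the serpin family on chromosome 18. Their RNA and the H3K27 acetylation around them were examined in H3122 cells and in 3 resistant derivatives. The genes were chosen by symbol, through the Ensembl identifiers of the deposited table. Values were found for 5 of the 6, among 43869 genes in the table, and 32 of its 126470 acetylation peaks were paired with at least 1 of them, meaning that they lay at most 20 kb from the gene. SERPINB2 has no row and was not analysed here. The members had been proposed with results of these data in view, so all of their values are given as a description.

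Those serpins that inhibit proteases do so by a trap. They offer an exposed loop as bait, and when a protease cuts it the serpin snaps into another shape and holds the protease bound. Clade B serpins lack a classical secretion signal and act largely inside cells, and their human genes sit in clusters on chromosomes 6 and 18. SERPINB3 and SERPINB4, known clinically as the squamous cell carcinoma antigens, inhibit cysteine and serine proteases and are made by squamous and airway epithelia. H3K27ac is the acetyl mark on lysine 27 of histone H3 that is found at active promoters and enhancers.

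H3122 is a human lung adenocarcinoma line whose growth depends on the fusion kinase EML4-ALK. Treatment-naive H3122 cells were the control. The resistant lines erCriz0, erAlec0 and erLor0 had been evolved from H3122 by gradually raised doses of an ALK inhibitor and are labelled with crizotinib at 0.5 µM for erCriz0, alectinib at 2 µM for erAlec0 and lorlatinib at 2 µM for erLor0. The labels give DMSO as the treatment of every sample, the naive cells included, and the methods state a period of growth without inhibitor before RNA was isolated. None of the sources used here calls a resistant line a single clone. Each line gave 1 RNA-seq and 1 H3K27ac ChIP-seq library, so no difference between lines has a replicate error or a p-value, and the 3 lines share the naive library.

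Values are rlog values, which are log2 of normalized reads drawn toward the feature's mean where reads are few. Changes are differences in rlog from the naive library, and a gene or peak counts as up from a change of 1 and as down from −1. Since rlog values are not counts, the depth of the libraries is unknown. The lung epithelial markers EPCAM, KRT7, KRT8, KRT18, KRT19, CDH1 and NKX2-1 all had values and none changed by 1. Their summed level was 16.05 on the log2 scale in naive and 16.00 in erCriz0 cells, with 16.53 in erAlec0 and 16.30 in erLor0 cells. The blood markers PTPRC and CD3E were at or below 0 in every library. The fibroblast markers PDGFRB, LUM and DCN summed to between 3.38 and 3.64. Among the endothelial markers PECAM1 was below 0 throughout, while CDH5 changed by 0.18, 1.68 and 1.54 in the 3 lines, in the order erCriz0, erAlec0, erLor0 that all lists of 3 changes keep, and the part of these markers in the results was not tested.

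The start regions of SERPINB3 and SERPINB4 carry the pattern described below, and they are nearly the same sequence. Both are shown 5′ to 3′ from 250 bases before to 50 after the RefSeq start on GRCh38.p14, on the minus strand, at chr18:63661844-63662143 and chr18:63644207-63644506. Capitals mark the bases that differ, G126A, G201A, C228T and T260C, counted from the first base shown, with the SERPINB3 base first.
SERPINB3: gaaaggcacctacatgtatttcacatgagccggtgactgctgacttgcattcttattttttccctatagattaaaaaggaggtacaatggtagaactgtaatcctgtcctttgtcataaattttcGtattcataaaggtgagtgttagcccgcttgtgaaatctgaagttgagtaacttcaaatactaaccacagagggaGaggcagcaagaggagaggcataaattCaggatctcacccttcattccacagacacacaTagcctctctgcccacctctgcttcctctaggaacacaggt
SERPINB4: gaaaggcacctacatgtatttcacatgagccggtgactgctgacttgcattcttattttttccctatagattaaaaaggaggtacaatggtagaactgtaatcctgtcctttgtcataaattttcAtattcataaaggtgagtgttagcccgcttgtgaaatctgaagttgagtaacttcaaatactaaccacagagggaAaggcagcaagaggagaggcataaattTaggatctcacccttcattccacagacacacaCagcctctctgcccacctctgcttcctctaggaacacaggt
The remaining 296 of 300 bases are identical. Their coding sequences of 1170 bp each differ at 56 positions, an identity of 95.2%, while every other pair of the 6 members lies between 49.0% and 56.0%. The division of RNA reads between SERPINB3 and SERPINB4 is therefore uncertain.

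The start regions of SERPINB5 and SERPINB8, both on the plus strand, are shown because an acetylation peak lies at each. The SERPINB5 region is chr18:63476708-63477007 and the SERPINB8 region chr18:63969831-63970130. Capitals mark matches to TGANTCA, the binding motif of AP-1 factors with any base allowed at its centre. The reverse strand of this pattern reads the same.
SERPINB5: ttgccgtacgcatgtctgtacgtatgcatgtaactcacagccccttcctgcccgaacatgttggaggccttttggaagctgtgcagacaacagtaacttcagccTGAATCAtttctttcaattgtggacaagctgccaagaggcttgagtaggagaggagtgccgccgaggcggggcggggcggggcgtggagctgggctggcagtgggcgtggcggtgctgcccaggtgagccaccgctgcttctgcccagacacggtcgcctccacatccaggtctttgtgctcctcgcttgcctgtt
SERPINB8: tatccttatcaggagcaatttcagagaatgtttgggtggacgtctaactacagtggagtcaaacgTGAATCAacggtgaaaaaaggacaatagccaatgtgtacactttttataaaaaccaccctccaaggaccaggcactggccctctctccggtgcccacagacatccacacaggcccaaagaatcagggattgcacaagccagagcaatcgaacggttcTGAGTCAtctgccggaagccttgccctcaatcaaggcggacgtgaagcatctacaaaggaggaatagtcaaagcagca
SERPINB5 holds 1 match and SERPINB8 holds 2, whereas SERPINB3 and SERPINB4 hold 0. Of the member promoters not shown, that of SERPINB2 holds 1 match and those of SERPINB7 hold 0, 2 and 2. Of 34943 RefSeq promoters of this length, 7.72% hold the motif. The windows of the 4 genes differ in composition, with 59.7% G and C in SERPINB5, 48.7% in SERPINB8, 43.0% in SERPINB3 and 42.3% in SERPINB4, against a median of 58.7% over all promoters.

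In erCriz0, RNA of SERPINB3 and SERPINB4 was far above naive cells, SERPINB8 was up to a lesser degree, and no member was down in any line. In erCriz0 3 of the 5 members were up, where 0.818% of all genes were up and 0.481% down. In erAlec0 only SERPINB8 was up, 1 of 5, against 0.72% of genes up and 0.609% down. In erLor0 0 of 5 were up, against 0.321% up and 0.219% down. Among the 12701 expressed genes, those that reach log2 of 25 reads (4.64) in at least 1 library as 4 of the 5 members do, 2.65% were up and 1.65% down in erCriz0. For erAlec0 these shares were 2.46% and 2.07%, and for erLor0 1.1% and 0.74%. Because the members were proposed from these contrasts, the counts are not read against those shares.

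SERPINB4 (ENSG00000206073.11, chromosome 18 from 63637259 to 63644256, minus strand) had an RNA rlog of 4.37 in naive and 9.95 in erCriz0 cells, with 5.14 in erAlec0 and 4.53 in erLor0 cells. The erCriz0 library stood apart and the other 3 lay within 1 of each other. Its change in erCriz0 was 5.58, or 48.0-fold on the rlog scale, which was the second largest RNA rise of that line. The naive level lies below 4.64, so this fold change rests on few naive reads. The changes in erAlec0 and erLor0 were 0.77 and 0.16.

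SERPINB3 (ENSG00000057149.16, 63655197 to 63661893, minus strand), an inhibitor of papain-like cysteine proteases such as cathepsins L and S, followed the same order. Its RNA rlog was 3.72 in naive and 8.67 in erCriz0 cells, with 4.32 in erAlec0 and 3.88 in erLor0 cells. The change in erCriz0 was 4.94, or 30.8-fold, and ranked number 4 among all genes. In erAlec0 and erLor0 it was 0.59 and 0.15. Outside erCriz0 the gene stayed below 4.64, the study's minimum for a gene. Its smaller changes therefore rest on few reads, as does the naive level under its fold change.

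SERPINB8 (ENSG00000166401.15, 63970029 to 64019779, plus strand), an inhibitor of the proprotein convertase furin, was the member up in both erCriz0 and erAlec0. Its RNA rlog was 7.63 in naive and 8.98 in erCriz0 cells, with 8.82 in erAlec0 and 8.06 in erLor0 cells. All 3 resistant lines were above naive cells, with changes of 1.35, 1.18 and 0.42. SERPINB8 overlaps HMSD on the same strand, so reads from the shared stretch cannot be assigned to either with certainty.

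SERPINB5 (ENSG00000206075.14, 63476958 to 63505085, plus strand), which encodes maspin, and SERPINB7 (ENSG00000166396.13, 63752935 to 63805376, plus strand), which encodes megsin, did not reach a change of 1 in any line. SERPINB5 had an RNA rlog of 5.35 in naive and 6.03 in erCriz0 cells, with 5.28 in erAlec0 and 5.89 in erLor0 cells. Its changes were 0.68, −0.07 and 0.54, and it contains ENSG00000269989 on the same strand. The erAlec0 library was level with naive cells and the others lay above both. SERPINB7 was near the bottom of the scale, at 2.04 in naive and 2.54 in erCriz0 cells, with 2.04 in erAlec0 and 1.96 in erLor0 cells, and its changes were 0.50, −0.00 and −0.08. In each of the 5 genes the highest of the 4 libraries was erCriz0.

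**Figure D1:**
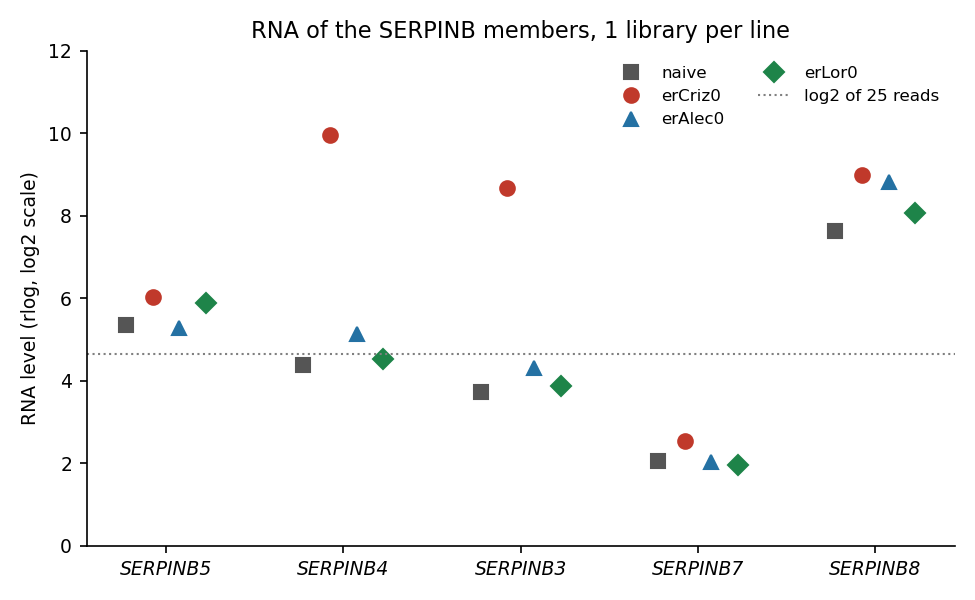
RNA level of each SERPINB member as rlog on a log2 scale, 1 point per library, with a dotted line at log2 of 25 reads. SERPINB4 and SERPINB3 stand at 9.95 and 8.67 in erCriz0 and at 5.14 or below in the other lines, while the 4 points of SERPINB8 span 7.63 to 8.98.

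RNA of the genes between the members was also highest in erCriz0. Of the other clade B genes of chromosome 18, 4 of 5 had values, since SERPINB10 has no row, and all 4 were below 4.64 in every library. SERPINB13, also called headpin, had an RNA rlog of 2.56 in naive and 4.48 in erCriz0 cells, with 2.66 in erAlec0 and 2.61 in erLor0 cells. It was the 1 gene of them that was up, by 1.93 in erCriz0. HMSD, SERPINB11 and SERPINB12 changed by 0.90, 0.73 and 0.18 in erCriz0. In erAlec0 and erLor0 the change of these 3 genes farthest from 0 was −0.07, at HMSD in erLor0. SERPINB11 overlaps SERPINB3 on the opposite strand, and the strand setting of the counting is not given in the sources used here.

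Of the clade B genes of chromosome 6, SERPINB1 was up in erCriz0 and SERPINB9 was down in erAlec0 and erLor0. SERPINB1, an inhibitor of neutrophil serine proteases, had an RNA rlog of 11.10 in naive and 12.68 in erCriz0 cells, with 11.80 in erAlec0 and 11.00 in erLor0 cells. It changed by 1.57, 0.70 and −0.10. SERPINB9, the inhibitor of granzyme B, changed by 0.87 in erCriz0 but by −1.07 in erAlec0 and −1.16 in erLor0. SERPINB6 changed by 0.18, 0.43 and 0.22. Among the genes flanking the cluster, PHLPP1, BCL2, KDSR, VPS4B, TNFRSF11A, ZCCHC2, CDH7 and CDH19, 0 of 8 were up or down in any line. The highest of their changes in erCriz0 was 0.65, at KDSR. Over the 16 expressed genes within 5 Mb of the cluster, clade B genes left out, the median RNA change was 0.27 in erCriz0 cells, against 0.03 in erAlec0 and −0.08 in erLor0. Of these 16 genes 1 was up in erCriz0, MALT1 with a change of 1.01, which was named after its values were seen.

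Acetylation rose along most of the cluster in erCriz0 and at few of its peaks in the other lines. Of the 32 peaks paired with a member, 20 were up and 0 down in erCriz0, where 7% of all peaks were up and 5.94% down. In erAlec0 1 was up and 1 down, against 14.1% and 9.41% of all peaks. In erLor0 2 were up and 1 down, against 7.45% and 8.82%. The 20 peaks up in erCriz0 were 62.5% of the 32, and the counts are a description, since the cluster was proposed with these libraries in view. The median change of the 32 peaks was 1.34 in erCriz0 but −0.07 in erAlec0 and −0.15 in erLor0, and erCriz0 had the highest value of the 4 libraries at 29 of the 32. None of the 20 peaks up in erCriz0 was up in either other line.

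The members' RNA and these peaks come from separate libraries of the same lines, but neither is replicated. Of the 32 peaks, 19 reached log2 of 15 reads, the study's minimum for a peak, in at least 1 library, and 14 of these 19 were up in erCriz0. Without the 3 peaks that overlap SERPINB3 or SERPINB4, a choice made after the values were seen, 17 of 29 were up in erCriz0 with a median change of 1.27.

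The body of SERPINB3 lay under a single peak of 8040 bp, from 63654732 to 63662771, which covers its start and its whole length. Its H3K27ac rlog was 5.94 in naive and 9.21 in erCriz0 cells, with 5.06 in erAlec0 and 5.17 in erLor0 cells. The change of 3.28 in erCriz0 ranked number 7 of the 126470 peaks, while erAlec0 and erLor0 lay below naive cells, by −0.87 and −0.77.

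A peak of 11845 bp, from 63637604 to 63649448, covers the start of SERPINB4 and all but the far end of its body, and its change in erCriz0 ranked number 8. Its H3K27ac rlog was 6.53 in naive and 9.69 in erCriz0 cells, with 5.98 in erAlec0 and 5.74 in erLor0 cells, and the changes were 3.17, −0.55 and −0.79. The median length of peaks in the table was 522 bp. RNA of both genes in erAlec0 and erLor0 was slightly above naive cells although the acetylation over them was slightly below, and both differences are smaller than 1.

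The duplication of this stretch touches the peaks as well. The ChIP-seq reads are 75 nt long. Of all 75-nt windows, 16.6% in the SERPINB3 peak and 11.6% in the SERPINB4 peak occur more than once in the cluster. Reads from such windows are lost if only uniquely mapped reads are kept. The methods state this filter after alignment but do not repeat it for the peak counts. The paired peak with the highest level in naive cells holds no repeated window. It is 5738 bp long, from 63679841 to 63685578, and lies before the start of SERPINB3 and within SERPINB11. It had an H3K27ac rlog of 8.07 in naive and 9.75 in erCriz0 cells, with 8.98 in erAlec0 and 8.92 in erLor0 cells. It was up by 1.68 in erCriz0 and changed by 0.91 and 0.85 in the other lines, so that all 3 resistant lines lay above naive cells here.

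Away from SERPINB3 and SERPINB4 the peaks with the largest rise at SERPINB5 and SERPINB7 are shown in part, 300 bases on the plus strand of hg38 around an AP-1 motif, which is in capitals. The first window is chr18:63520305-63520604, beyond the end of SERPINB5, and the second chr18:63736814-63737113, before the start of SERPINB7.
SERPINB5 peak: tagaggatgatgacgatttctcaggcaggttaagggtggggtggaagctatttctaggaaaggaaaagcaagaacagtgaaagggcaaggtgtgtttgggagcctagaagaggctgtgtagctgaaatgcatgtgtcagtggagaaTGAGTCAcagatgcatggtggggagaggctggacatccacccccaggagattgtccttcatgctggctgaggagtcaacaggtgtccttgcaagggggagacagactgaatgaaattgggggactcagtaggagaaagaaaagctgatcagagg
SERPINB7 peak: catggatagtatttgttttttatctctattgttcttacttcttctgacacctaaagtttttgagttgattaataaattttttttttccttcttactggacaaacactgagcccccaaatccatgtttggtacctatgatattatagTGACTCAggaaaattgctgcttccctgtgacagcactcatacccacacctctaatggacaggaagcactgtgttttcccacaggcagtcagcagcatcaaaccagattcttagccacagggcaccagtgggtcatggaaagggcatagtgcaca
The SERPINB5 peak, from 63519890 to 63520866, had an H3K27ac rlog of 3.07 in naive and 5.12 in erCriz0 cells, with 3.30 in erAlec0 and 2.94 in erLor0 cells, a change of 2.04 in erCriz0. The SERPINB7 peak, from 63736673 to 63738119, had 4.02, 5.96, 3.96 and 3.87, a change of 1.94. In both, erCriz0 stood apart from the other 3 libraries. Over all 32 peaks, 12 hold at least 1 TGANTCA match, or 37.5%, with 0.647 matches per kb. The peaks over SERPINB3 and SERPINB4, which are in part duplicated sequence, hold 7 matches each, so this density counts some sequence more than once. The other 2113 peaks of chromosome 18 hold 0.371 per kb, and 24.7% of them hold at least 1. Within the cluster the density was 0.640 per kb in peaks up in erCriz0 and 0.697 per kb in those not up. At least 1 match was held by 9 of the 20 peaks up (45%) and 3 of the 12 not up (25%). These shares are not corrected for peak length, and the 20 peaks total 43.7 kb while the 12 total 5.74 kb. Nor is length corrected in the shares of the 32 peaks, 49.5 kb in all, and of the 2113 others, 2385 kb in all.

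At the starts of SERPINB8 and SERPINB5 no peak was called up in erCriz0. The peak 475 bp from a SERPINB7 start was up there, while the peak 534 bp from another was not. A peak of 2066 bp covers the SERPINB8 start, from 63969226 to 63971291, and its H3K27ac rlog was 7.75 in naive and 8.74 in erCriz0 cells, with 8.12 in erAlec0 and 8.19 in erLor0 cells. Its changes were 0.99, 0.37 and 0.44. SERPINB8 RNA was thus up in erCriz0 and erAlec0 without a peak called up, but the erCriz0 change lay only just under 1. Centring on the median of all peaks, 4.12 in naive and 4.03 in erCriz0 cells, brings this change over the limit. The peak also lies in HMSD and over the start of ENSG00000283667 on the other strand. The lowest change of a SERPINB8 peak was −0.29 in erLor0, at 63971424 to 63971684.

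The peak at SERPINB5, from 63476331 to 63476826, ends 132 bp before the gene start and was the 1 peak of a member start that was up in erLor0. Its H3K27ac rlog was 3.09 in naive and 3.28 in erCriz0 cells, with 3.13 in erAlec0 and 4.15 in erLor0 cells. The changes were 0.19, 0.04 and 1.06. The order of the lines here differs from that of SERPINB5 RNA, in which erCriz0 was highest. SERPINB7 has no peak over any of its 3 RefSeq starts. The nearest peaks lie 475 bp from one and 534 bp from another and changed by 1.59 and 0.97 in erCriz0. Their levels were 1.66 and 1.93 in naive cells and 3.26 and 2.90 in erCriz0 cells. Both stayed below the study's minimum for a peak in every library.

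**Figure D2:**
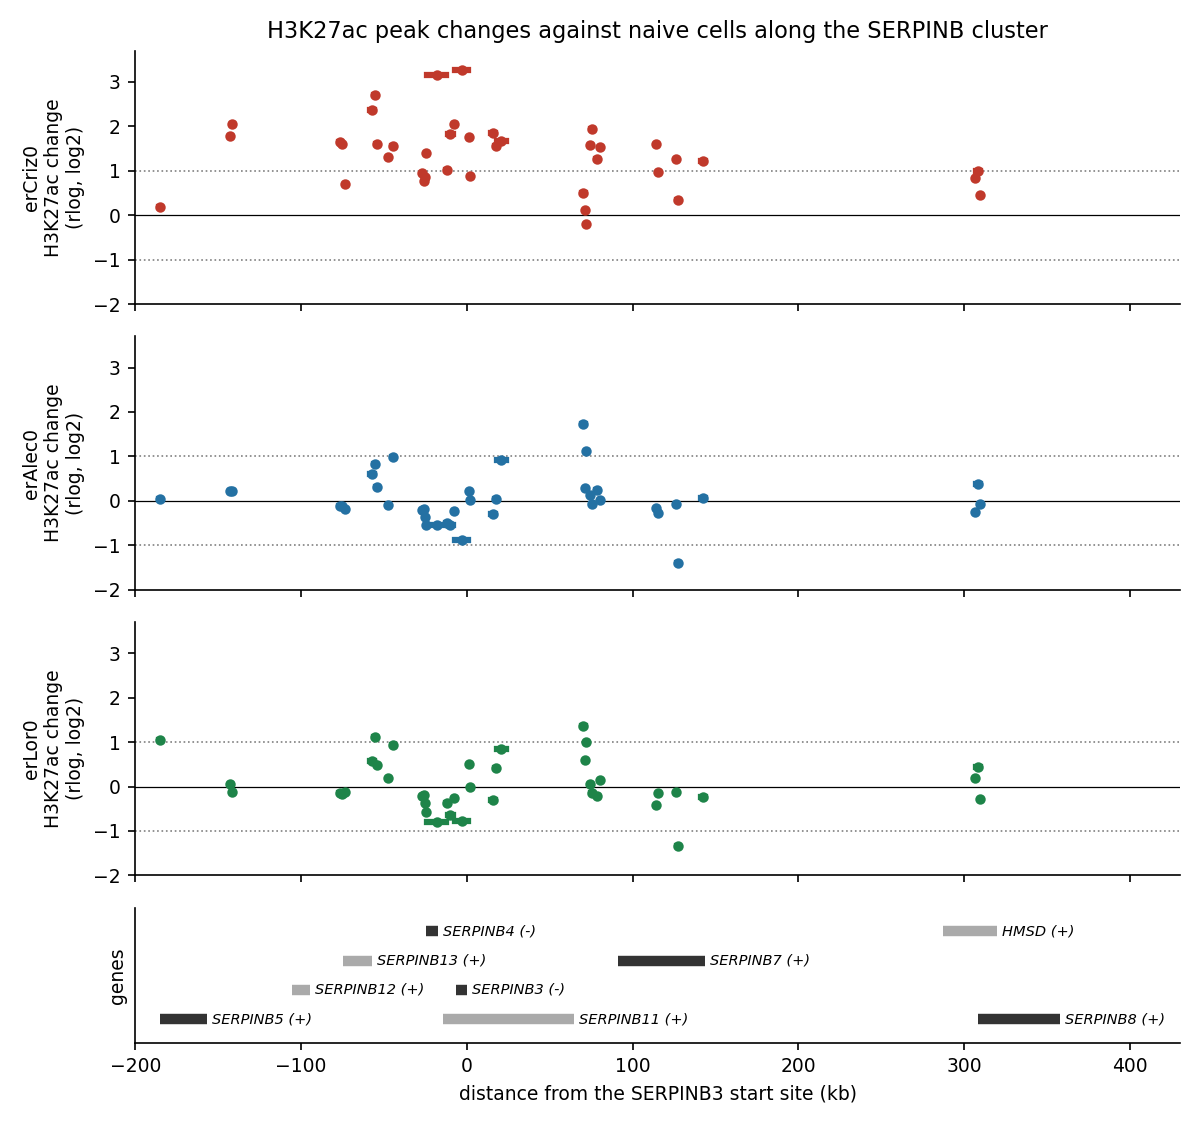
Change of each H3K27ac peak against naive cells on the rlog scale (vertical axes) along the cluster, by distance in kb from the SERPINB3 start, with 1 panel per resistant line and genes below, members dark. Bars give peak lengths and dotted lines mark changes of 1 and −1. In erCriz0 26 of the 39 peaks between the outer ends of the members are up, against 2 in erAlec0 and 3 in erLor0.

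A few peaks near SERPINB7 went against the rest of the cluster. The peak from 63733431 to 63733896 had an H3K27ac rlog of 2.85 in naive and 2.64 in erCriz0 cells, with 3.96 in erAlec0 and 3.86 in erLor0 cells. It was up by 1.11 in erAlec0 and 1.01 in erLor0 and was the 1 paired peak below naive cells in erCriz0, at −0.21. Close by, a peak paired with SERPINB11 alone, from 63731212 to 63732844, changed by 0.49 in erCriz0 but by 1.72 in erAlec0 and 1.37 in erLor0. Inside SERPINB7, the peak from 63788611 to 63789374 had 5.14 in naive and 5.48 in erCriz0 cells, with 3.74 in erAlec0 and 3.81 in erLor0 cells, and was the 1 paired peak that was down, by −1.40 in erAlec0 and −1.33 in erLor0. In all 3 of these peaks erAlec0 and erLor0 lay close together and apart from naive and erCriz0 cells.

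**Figure D3:**
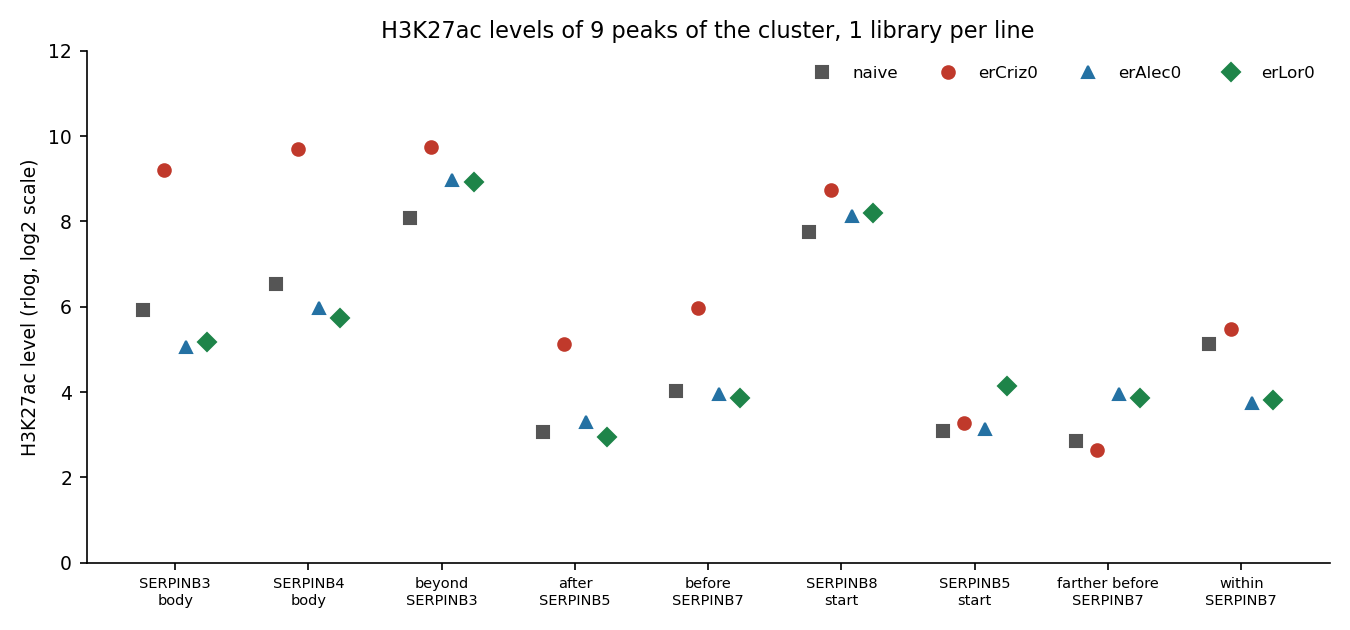
H3K27ac level, as rlog on a log2 scale, of 9 peaks of the cluster, 1 point per library. At the SERPINB3 and SERPINB4 bodies erCriz0 stands at 9.21 and 9.69 above the other lines, whereas at the last 2 peaks, near and within SERPINB7, erAlec0 and erLor0 stand together.

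Counted by member, the rise in erCriz0 covered 10 of 13 peaks paired with SERPINB3 (median change 1.68), 8 of 12 with SERPINB4 (1.48), 2 of 3 with SERPINB5 (1.78), 7 of 11 with SERPINB7 (1.27) and 0 of 3 with SERPINB8 (0.83). Peaks near several members are counted with each. SERPINB13, which lies between members, had 7 of 8 paired peaks up in erCriz0, and the largest rise among them was 2.70, at 63606045 to 63607208. Past SERPINB7 the table holds no peak from 63805447 to 63968388, a gap of 162940 bp that contains SERPINB2 and SERPINB10, and the peak numbers on both sides follow each other directly. The RefSeq start of SERPINB2 lies 80683 bp from the nearest peak, beyond the 20 kb within which genes were paired.

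The cluster was also set beside the surrounding part of the chromosome. No input subtraction is stated for the peak values. The 39 peaks between the outer ends of the members had a median change of 1.53 in erCriz0, and the 197 other peaks within 5 Mb had 0.37, a difference of 1.16. In erAlec0 the cluster median was −0.07 against 0.28 in the region, and in erLor0 −0.13 against 0.34, differences of −0.34 and −0.47. Within 1 Mb before the cluster 57 peaks had medians of 0.47, 0.59 and 0.60 in erCriz0, erAlec0 and erLor0, with 9, 16 and 17 of them up. Only 6 peaks lie within 1 Mb after it, with medians of 0.24, 0.78 and 0.23.

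**Figure D4:**
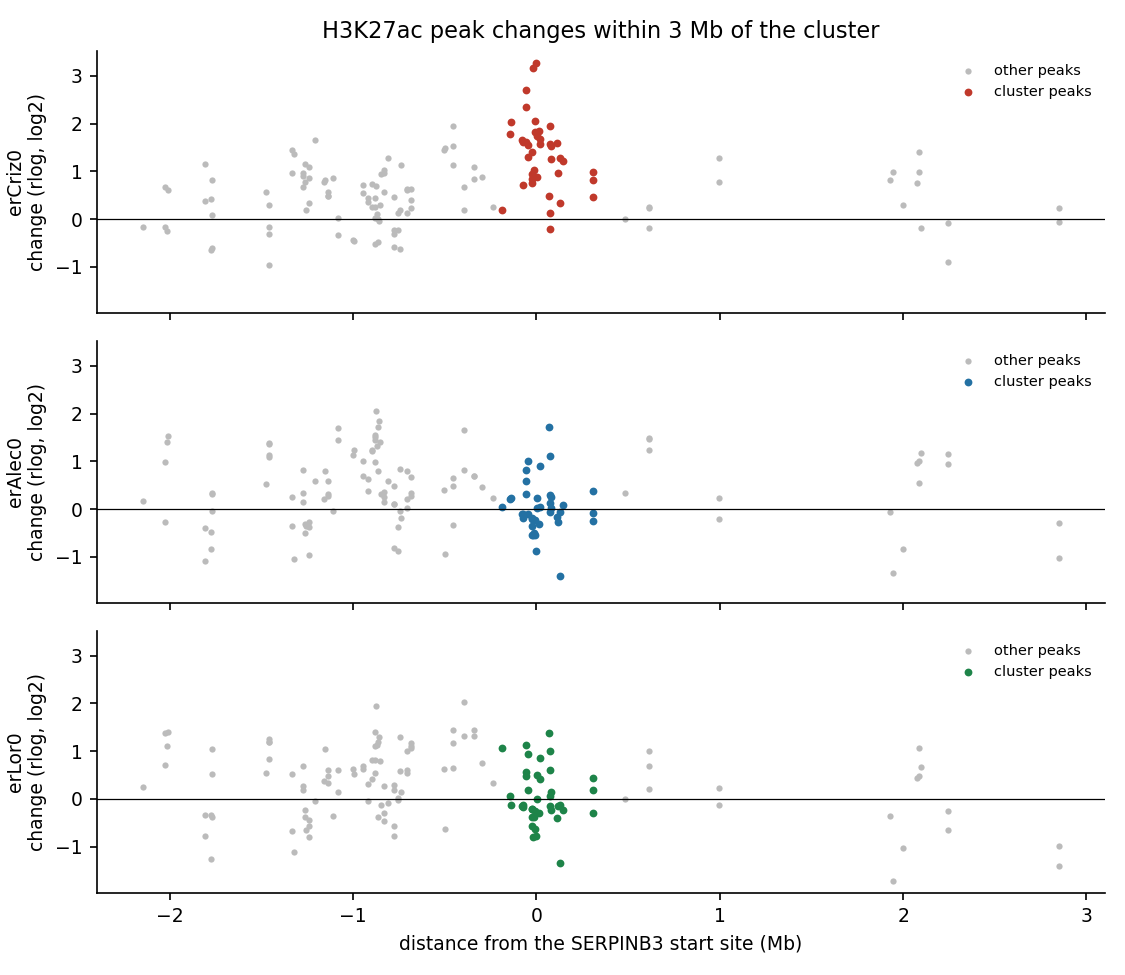
Change of H3K27ac peaks against naive cells (rlog, vertical axes) within 3 Mb of the cluster, by distance in Mb from the SERPINB3 start, with cluster peaks coloured and other peaks grey. In erCriz0 the cluster peaks reach 3.28, with a median of 1.53 between the outer members, while the other lines have medians there of −0.07 and −0.13.

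Many serpins act against proteases. Some of those that the members or their relatives inhibit or are linked to were also up in erCriz0, while most of those listed were not. Of the list of 16 proteases and members of the plasminogen activator system, 15 had values. In erCriz0 4 were up and 0 down, in erAlec0 2 and 0, and in erLor0 1 and 1, with median changes of 0.31, 0.18 and 0.26, where the median over expressed genes was −0.02, 0.00 and −0.00. Of the 15 genes 11 were expressed, and over all expressed genes the shares up in the 3 lines were 2.65%, 2.46% and 1.1%. PLAT, tissue plasminogen activator, had an RNA rlog of 7.11 in naive and 11.23 in erCriz0 cells, with 9.18 in erAlec0 and 7.45 in erLor0 cells. Its changes were 4.12, 2.07 and 0.33, the order of lines seen for SERPINB3 and SERPINB4.

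The lysosomal cysteine proteases moved unequally. CTSL, cathepsin L, had 8.99 in naive and 11.23 in erCriz0 cells, with 8.66 in erAlec0 and 7.90 in erLor0 cells, so it was up by 2.24 in erCriz0 and down in erLor0, by −1.09. CTSS, cathepsin S, changed by 1.53, 1.02 and 0.51, and CTSB, cathepsin B, by 1.29, 0.63 and 0.01. CTSV and CTSK did not reach 1 in any line. PLAU, urokinase, the target of SERPINB2, changed by 0.14, 0.90 and 1.13. FURIN, the target of SERPINB8, changed by −0.51, 0.66 and 0.55. CMA1 was listed at 0 in all libraries and ELANE was below 0.

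Of 24 squamous epithelial genes, 20 had values and 11 of these were expressed, that is, reached 4.64 in at least 1 library. In erCriz0 4 were up, in erAlec0 4 and in erLor0 3, and none was down, with median changes of 0.10, 0.18 and 0.08. The shares of all expressed genes up in these lines were 2.65%, 2.46% and 1.1%. KRT6A, a keratin of activated epithelium, was up in all 3 lines, by 3.11, 1.05 and 1.01. S100A9, a calcium-binding protein of myeloid and inflamed epithelial cells, had 6.87 in naive and 10.97 in erCriz0 cells, with 7.06 in erAlec0 and 5.96 in erLor0 cells, a change of 4.09 in erCriz0. SPRR1B and SPRR3, cornified envelope precursors, followed the same order of lines, SPRR1B with 2.80, 1.70 and 0.33 and SPRR3 with 1.49, 0.92 and −0.02. KRT16 and KRT17, keratins of stressed epidermis, were instead up in erAlec0 and erLor0. KRT16 changed by 0.46, 1.72 and 1.40, and KRT17 by −0.31, 2.20 and 1.39. TP63, the master regulator of squamous epithelium, changed by −0.01, 0.77 and −0.16, and KRT5, KRT13, DSG3, DSC3 and PI3 were at or below 0 in every library. KRT14, SPRR2A, S100A7 and S100A8 have no row, nor has the protease CTSG or the blood marker HBB.

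**Figure D5:**
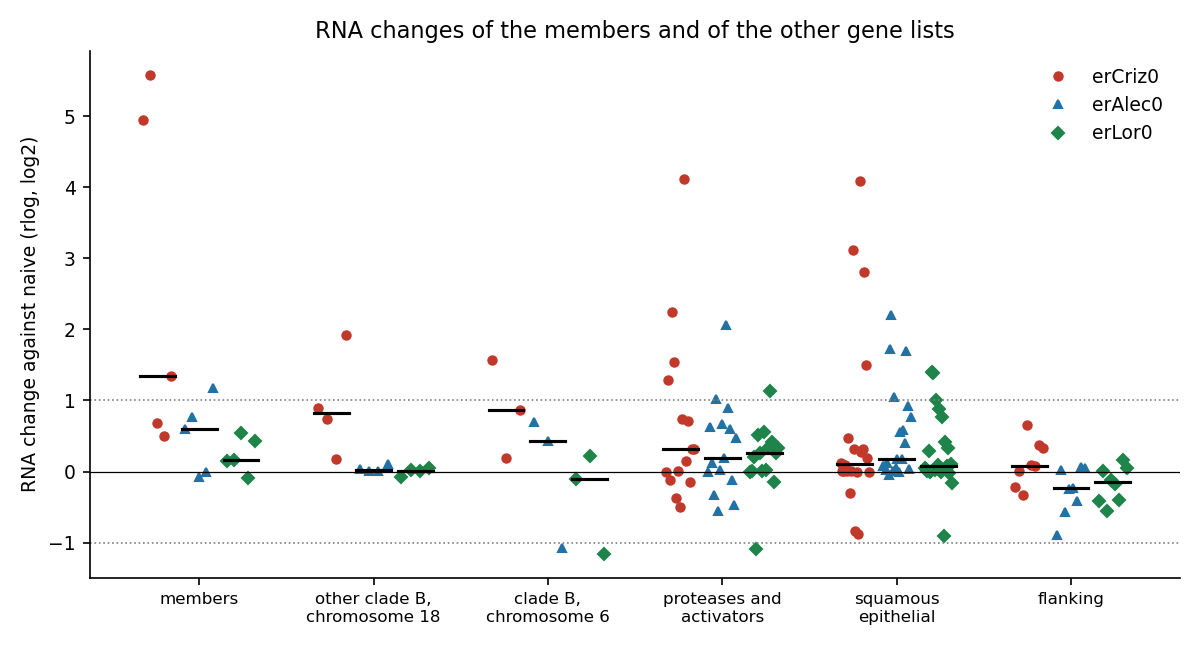
RNA change against naive cells (rlog, log2 scale) of each gene with values in 6 lists, with 1 colour and marker per resistant line, black bars at the medians and dotted lines at 1 and −1. The 2 highest points of erCriz0 are SERPINB4 at 5.58 and SERPINB3 at 4.94, and no flanking gene reaches 1.

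The expressed genes with the most similar RNA changes were sought by the distance between their 3 changes and those of a member, over 12680 genes. The nearest to SERPINB4 was SLC34A2, a phosphate transporter of alveolar type II cells, with changes of 5.62, 1.07 and 0.46 and a distance of 0.42. It was also the nearest to SERPINB3, at 0.88. The interferon-induced genes MX2, with 3.95, 0.01 and 0.06, and IFI16, with 5.02, 1.79 and 0.30, came next for both, in opposite order. For SERPINB8 the nearest were CDYL2, ANTXR2 and SEPTIN10, with distances of 0.13, 0.19 and 0.19. These likenesses rest on 4 libraries.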

How the data were processed

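Gene and H3K27ac values of H3122 cells and the lines erCriz0, erAlec0 and erLor0 were read from 1 table of peak and gene pairs. The other 4 of 8 samples have no column and were not analysed here. The deposited values are on a log2 scale. For RNA the authors used HISAT2 (hg38) and HTSeq-count. For ChIP-seq the authors used BWA, MACS2 peak calling in each of 4 samples, merging of these peaks and featureCounts. For both the authors used the rlog function of DESeq2. The methods state a filter for uniquely mapped reads after the ChIP-seq alignment but do not repeat it for the peak counts. Versions are not given in the sources used here. Columns of the authors' correlation (a score), p-value and adjusted p-value per pair, as deposited, were not used.

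Symbols came from GENCODE by Ensembl identifier, which matched 43669 of 43869 genes, and table starts were made 1-based. Changes, counts at a limit of 1 and medians were computed with Python 3.11.15, numpy 2.4.6 and pandas 2.3.3, and alignments with Biopython 1.88. Promoters came from RefSeq (GRCh38.p14), matched all 6 members and were identical to hg38. The genes named are the members, the genes of 9 lists that reached a change of 1, and the 3 nearest genes to each member that did. Peaks named are those nearest to a start and those with the largest rise or fall at each member. Other list genes, and the peaks starting at 63606045, 63679841, 63731212 and 63733431, were named after their values were seen. Both the members and the lists were chosen with earlier results of these data known. Counting was tested on simulated data. Alternatives covered limits, scaling, filters on low values, pairing distance, counting of pairs or of SERPINB3 and SERPINB4 as 1 gene, and the surrounding window.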

Additional observations from a re-analysis of the deposited data

How the results depend on the processing

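With 1 library per line no value has a replicate error, and depth is unknown. No paired analysis was possible because each line has 1 library and no test was run. All 15 RNA changes of the members stayed on their side of 1 and, where called, kept their sign after centring and after quantile normalization. Centring adds 0.10 to each peak change of erLor0. It also raised the erCriz0 changes, with the median of the paired peaks going from 1.34 to 1.42 and those up from 20 to 23. The cluster's median in erCriz0 exceeded its surroundings by 1.05 with a window of 2 Mb, by 1.35 against all of chromosome 18 and by 1.14 over peaks reaching log2 of 15, and no such difference in the 3 lines moved by 0.25.

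Counts of members up in erAlec0 became 0 at a limit of 2 and 3 at log2 of 1.5. Paired peaks up in erCriz0 became 9 of 19 within 5 kb, 6 of 10 overlapping a member and 4 of 32 at a limit of 2, and the median within 5 kb became 0.99. The nearer sets hold fewer peaks, and the limit of 2 is higher. Peaks within 5 kb also rose less than the full set, whose median was 1.34, and the reason was not tested. In erAlec0 the 1 peak up became 0 within 5 kb, 0 overlapping a member, 0 at a limit of 2 and 3 at log2 of 1.5, and the 1 peak down became 2 after quantile normalization, 0 at a limit of 2 and 2 at log2 of 1.5. In erLor0 the 2 peaks up became 1 within 5 kb, 0 overlapping a member, 0 at a limit of 2 and 5 at log2 of 1.5, and the 1 peak down became 0 at a limit of 2 and 4 at log2 of 1.5. The cause of the change after quantile normalization was not tested. The remaining counts and medians stayed within 1.5 times or 0.25 of the values given above. Leaving out the peaks over SERPINB3 and SERPINB4 was added after the data had been seen.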
